A study of Mus musculus with 21 samples.

Results

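The protein components of the cytosolic ribosome are described here in 2 mouse tissues, BAT (brown adipose tissue) and WV (white vastus lateralis, a thigh muscle rich in fast fibres). Members were the gene symbols made of Rpl or Rps and a number, with at most a trailing a, x or l, together with Rplp0, Rplp1, Rplp2 and Rpsa. The rule found 82 gene models of 79 genes among 28541 models in all, 48 genes of the large subunit and 31 of the small subunit. For Rpl29 and Rps4x, which have several models, the model with the highest summed count was used. The rule used names only and no measured value.

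The ribosomal proteins are made in near equal amounts, and their genes are among the most highly expressed in every nucleated cell. Their mRNAs typically begin with a cytosine followed by a run of pyrimidines, the terminal oligopyrimidine tract, through which growth signals control their translation as a group. Most have a single active gene and many processed pseudogenes. A few have a second gene with a restricted pattern, such as Rpl3l, which takes the place of Rpl3 in striated muscle. Rmrp and Rpph1, whose levels are given beside the members, are the RNA parts of RNase MRP, which cuts the precursor of ribosomal RNA, and of RNase P, which trims tRNA precursors.

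The study compared BATI4KO mice with floxed controls. From knowledge of the study, BATI4KO mice lack the transcription factor Irf4 in cells that express the Ucp1-driven Cre recombinase, mainly brown adipocytes, and both groups carry the loxP-flanked Irf4 alleles. There were 5 floxed and 6 BATI4KO libraries of BAT, and 5 of either genotype of WV, all of RNA from whole tissue. The labels used here give no age, sex or diet and do not say which libraries come from separate animals, so that a p-value reflects only how far these libraries spread, which may in part be technical. The titles of 6 BAT libraries end in 1, 2 or 3 (short numbers, 3 of each genotype), and the other libraries carry long tags, such as FX_5497 (floxed) or KO_5492 (BATI4KO). The labels do not explain these numbers, and title style was a term in every fit that held BAT, so that differences between the tissues refer to BAT libraries with long tags.

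Total counts were 20219479 to 41773148 per library in BAT and 30479508 to 40328627 in WV. The members took 0.371% to 1.01% of a library's counts, with 95% Wilson score intervals at most 0.00422 percentage points either side, which cover counting error only. Irf4 was at 23.9 to 59.8 CPM (counts scaled to library size, with TMM factors within a tissue) in floxed BAT and at 6.57 to 8.10 CPM in BATI4KO BAT, with no overlap, and fell by 2.45 on the log2 scale (SE 0.24, edgeR adjusted p = 0.0026). Ucp1, the heat-producing carrier of brown fat, was at 1401 to 7606 CPM in BAT and at most 0.299 CPM in WV, and the giant muscle protein Ttn took 8.72% to 18.8% of the counts in WV. Rmrp set libraries apart within both tissues. In BAT its range was 299 to 1330 CPM over the 6 short-number libraries and 11.7 to 32.3 CPM over the 5 others. In WV it was at 107, 108 and 133 CPM in floxed libraries FX_5497, FX_5503 and FX_5514 and at 11.8 to 22.4 CPM in the other 7.

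RefSeq start sites (build GRCm38.p6) were found for 59 of the 79 genes, with 71 starts in all. A run of at least 8 pyrimidines that reached within 15 bases of the start on either side was present at 43.7% of these starts, against 17.6% of the 32851 starts of all genes in the same table. A C followed by 4 pyrimidines directly at the start was found at 18.3% of member starts and 2.51% of all starts. The sequences below run from 40 bases before to 15 bases after the listed start, on the gene's own strand, and the capitals mark the longest pyrimidine run that reaches within 15 bases of the start (the first one where runs tie, as at Rps27l). They are shown because the results turn on these genes: Rps27 and Rpl35 are among the members that spread widely between libraries, Rplp2 and Rpl4 differed in opposite directions between tissues, and the other 3 are paralogues with patterns of their own.
Rps27 (chr3:90213634-90213688, minus strand): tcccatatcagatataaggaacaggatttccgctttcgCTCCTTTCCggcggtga
Rpl35 (chr2:39005117-39005171, minus strand): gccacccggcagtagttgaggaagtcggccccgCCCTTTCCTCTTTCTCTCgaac
Rplp2 (chr7:141447611-141447665, plus strand): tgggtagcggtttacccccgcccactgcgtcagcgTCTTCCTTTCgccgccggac
Rpl4 (chr9:64173347-64173401, plus strand): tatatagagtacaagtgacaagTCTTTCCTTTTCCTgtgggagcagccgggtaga
Rpl3l (chr17:24727786-24727840, plus strand): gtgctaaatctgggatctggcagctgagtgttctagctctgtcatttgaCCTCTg
Rps27l (chr9:66946046-66946100, plus strand): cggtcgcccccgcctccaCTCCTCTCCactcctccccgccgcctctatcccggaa
Rpl39l (chr16:10170188-10170242, plus strand): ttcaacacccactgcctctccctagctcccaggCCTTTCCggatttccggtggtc
The run was 18 bases long at Rpl35 and 14 at Rpl4, 9 at Rps27 and Rps27l, 10 at Rplp2, 7 at Rpl39l and 5 at Rpl3l, whose run ends just before the last base shown. The median was 7 bases over member starts and 5 over all starts. Over the 300 bases from 250 before to 50 after the start, searched on both strands, CCGGAAG was present at 36.6% of member starts and 8.86% of all starts, ATGGCGG at 18.3% and 4.06%, TATAAA at 8.45% and 13.6%, and CAGCTG at 5.63% and 16.3%. These matches describe letters in the reference and were not tested against the counts.

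Levels between genes were compared per length, as RPKM (CPM per kilobase of gene model, with TMM factors over all 21 libraries). In floxed BAT the members ran from 0.00453 RPKM to 235 RPKM with a median of 79.8. Among the highest means there were those of Rpl9 at 235 ± 53.7 RPKM (SD, n = 5), Rplp1 at 235 ± 81.0 and Rpl41 at 223 ± 82.3, which lie within an SD of each other. In floxed WV the median was 92.9 RPKM, and the highest members included Rplp0, the stalk scaffold, at 447 ± 42.9 RPKM (SD, n = 5), Rplp1 at 363 ± 85.8, Rpl4 at 312 ± 34.0 and Rps3a at 288 ± 18.1. The lowest members per length in floxed BAT were Rpl10l at 0.00453 RPKM, Rpl39l at 0.481, Rpl3l at 0.523, Rpl21 at 4.24 and Rps15a at 5.91. In floxed WV they were Rpl10l at 0.00960 RPKM, Rpl39l at 0.195, Rpl21 at 6.85, Rps15a at 6.92 and Rpl18 at 24.6. Rpl21 and Rps15a encode obligatory parts of the ribosome, and their models are 2228 and 5134 bases long against a median of 777 over members, which lowers a value per length. How much of their low values goes with length was not tested. The order of the 79 genes was similar in the tissues (Spearman rho = 0.84 over genes, which share libraries and lengths and are not replicates).

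**Figure D1:**
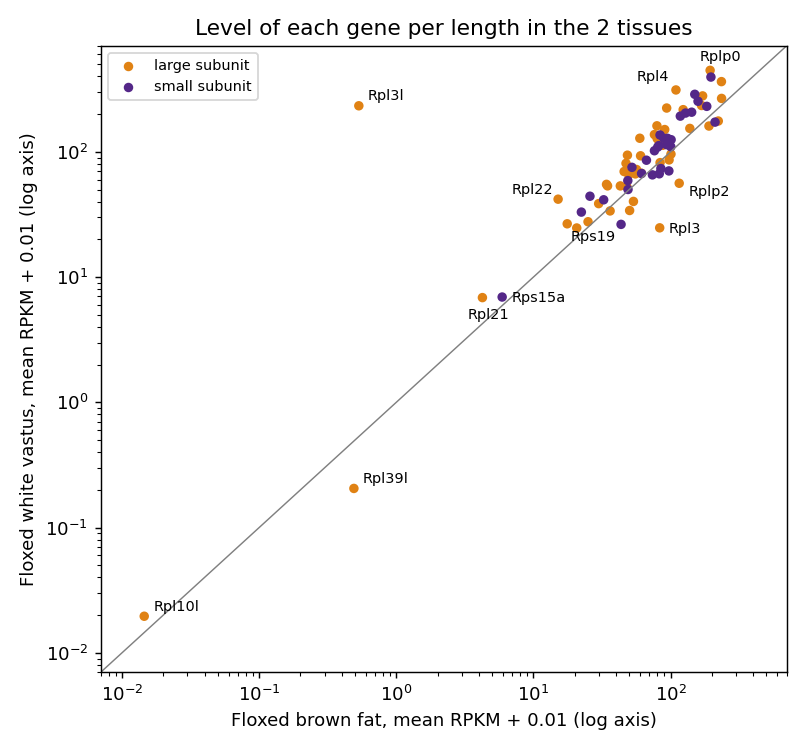
Mean RPKM of each of the 79 genes in floxed BAT (x axis) against floxed WV (y axis), both on log axes after adding 0.01, with the line of equal level. The BAT means join both title styles and are not adjusted for them. Most genes lie near the line, while Rpl3l (0.523 against 233 RPKM) lies far above it and Rpl3 (83.3 against 24.7 RPKM) below it.

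Between tissues, Rpl3 and its paralogue Rpl3l differed most. Rpl3, the core large-subunit protein next to the peptidyl transferase centre, was at 61.2, 72.8, 85.1, 97.4 and 99.9 RPKM in floxed BAT and at 19.9, 37.7, 23.7, 22.7 and 19.6 RPKM in floxed WV. All BAT libraries were above all WV libraries. The log2 difference of Rpl3, BAT minus WV, was +2.05 in floxed mice (SE 0.19, edgeR adjusted p = 3.18e-09) and +2.38 in BATI4KO mice (SE 0.18, edgeR adjusted p = 1.07e-10). Its paralogue Rpl3l was at 0.156 to 0.969 RPKM in floxed BAT and at 152 to 289 RPKM in floxed WV. The groups were again fully apart, and the log2 difference was -9.52 (SE 0.68, edgeR adjusted p = 7.25e-11) in floxed and -7.11 (SE 0.60, edgeR adjusted p = 9.36e-10) in BATI4KO mice.

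Among the other members tested, 3 more were higher in floxed BAT than in floxed WV and 29 more were lower, so that 4 of 78 tested members were called higher and 30 lower at an edgeR adjusted p under 0.05. Of all 16632 genes tested, 34.1% were called higher and 31.7% lower in this comparison. The acidic stalk proteins, which recruit elongation factors, did not move together. Rplp2 was at 109, 133, 160, 87.7 and 88.6 RPKM in floxed BAT and at 49.3, 36.0, 60.5, 64.1 and 70.4 RPKM in floxed WV, without overlap, a log2 difference of +0.65 (SE 0.17). Its partner Rplp1 had a log2 difference of -0.83 (SE 0.22) and the scaffold Rplp0 one of -0.92 (SE 0.15). These 3 differences had edgeR adjusted p-values of 0.00202, 0.00212 and 2.14e-05. Rps19, mutated in Diamond-Blackfan anaemia, was higher in BAT (+0.65, SE 0.25, edgeR adjusted p = 0.0262), as was Rpl19 (+0.33, SE 0.14, edgeR adjusted p = 0.0433). Both calls depended on single libraries. Rps19 was not called without BAT library FX_5503 (+0.64, edgeR adjusted p = 0.068) or WV libraries FX_5413 (+0.51, 0.0612) or FX_5415 (+0.42, 0.116), and Rpl19 was not called in 11 of the 21 fits that left out 1 library, nor with RLE scaling (+0.29, edgeR adjusted p = 0.0726). The 11 left out BAT floxed 2, 3 or FX_5503, BAT BATI4KO 1, 3, KO_5414 or KO_5494, or WV FX_5413, FX_5415, FX_5497 or FX_5514, with Rpl19 at +0.23 to +0.34. Rpl4 (-1.24, SE 0.14) and Rpl22 (-1.06, SE 0.15) were lower. Rpsa, the laminin receptor precursor of the small subunit, did not pass (-0.18, edgeR adjusted p = 0.379).

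In BATI4KO mice 9 of 78 tested members were called higher in BAT and 20 lower, against 37.4% and 33.1% of all genes tested. Those called higher included Rpl3, Rps19 (+1.42, SE 0.23), Rplp2 (+0.94, SE 0.16), Rpl19 (+0.47, SE 0.13), Rpl11, Rpl39l, Rpl27a and Rpl41. Among the smallest p-values of the lower ones, after Rpl3l, were those of Rpl4 (-1.26, SE 0.13), Rpl22 (-0.82, SE 0.13) and Rplp0 (-0.87, SE 0.14).

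The median over tested members was -0.41 in floxed and -0.15 in BATI4KO mice, against +0.11 and +0.14 over all genes tested, and its sign depended on scaling. With library totals only it was +0.29 and +0.81, with 21 members called higher and 2 lower in floxed mice (57% and 15.9% of all genes tested) and 69 higher and 2 lower in BATI4KO mice (68.3% and 13.8% of all genes), and with upper-quartile scaling it was -0.28 and +0.04. The median of all genes then moved as well, to +0.79 and +1.09 with library totals. Relative to the median of all genes, the members stood at -0.52 in floxed and -0.29 in BATI4KO mice with TMM and at -0.50 and -0.28 with library totals. On that scaling Rpl3 (+2.68), Rpl3l (-8.80), Rplp2 (+1.36), Rps19 (+1.35), Rpl19 (+1.01) and Rpl4 (-0.55) were still called in floxed mice, while Rpl22 (-0.38), Rplp0 (-0.23) and Rplp1 (-0.14) were not, and Rpl10 and Rpsa had the opposite sign. Without the 3 floxed WV libraries of high Rmrp the floxed median was -0.08, with 6 members called higher and 18 lower (26.7% and 28% of all genes tested), and Rplp1 (-0.45, edgeR adjusted p = 0.134) and Rpl19 (+0.36, edgeR adjusted p = 0.115) were no longer called. Without floxed BAT library 3 the number of members called lower in floxed mice was 48, and the share of all genes in that fit is not given here. Whole tissue was measured, so that fewer cells of a type and less RNA per cell cannot be told apart.

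Shares within the pool of ribosomal protein mRNA do not depend on scaling. Rpl3 made up 1.28% ± 0.30 of the members' summed RPKM in floxed BAT and 0.274% ± 0.12 in floxed WV (SD, n = 5 each). Rpl3l made up 0.00764% ± 0.0035 and 2.50% ± 0.55. Rplp0 took 2.98% ± 0.64 in BAT and 4.84% ± 0.75 in WV, Rpl4 took 1.69% ± 0.39 and 3.38% ± 0.60, and Rpl22, an RNA-binding protein at the surface of the large subunit, took 0.231% ± 0.061 and 0.450% ± 0.030. In the other direction Rplp2 took 1.76% ± 0.38 in BAT and 0.594% ± 0.092 in WV, and Rps19 took 0.653% ± 0.033 and 0.274% ± 0.084. In each of these 7 genes the ranges of the floxed BAT and WV libraries did not overlap. The BAT shares join both title styles without adjustment, whereas all WV libraries carry long tags. In BAT, Rplp2 was higher with short numbers (log2 difference +0.64). Rpl3 took a mean of 1.11% with short numbers and 1.56% with long tags, both genotypes together.

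Summed over Rpl3 and Rpl3l, the share of the pool differed between tissues by a smaller factor than for either gene alone. The pair took 1.29% ± 0.30 of the members' RPKM in floxed BAT, both title styles together, and 2.77% ± 0.50 in floxed WV (SD, n = 5 each). Within the pair, Rpl3l was 93.6%, 80.1%, 90.4%, 91.7% and 92.7% in floxed WV libraries FX_5413, FX_5415, FX_5497, FX_5503 and FX_5514. In BATI4KO WV it was 91.4%, 94.4%, 91.6%, 92.9% and 93.4%. Library FX_5415 was the lowest of the 10 and the others lay between 90.4% and 94.4%. The difference of means was +3.03 percentage points, which did not exceed the spread (exact two-sided permutation test over 252 relabellings, p = 0.254).

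In BAT, Rpl3l was at 0.628, 1.37, 2.13, 1.23 and 0.333 CPM in floxed libraries 1, 2, 3, FX_5497 and FX_5503. In BATI4KO libraries 1, 2, 3, KO_5414, KO_5492 and KO_5494 it was at 2.82, 1.41, 18.9, 4.05, 3.27 and 2.54 CPM. BATI4KO library 3 stood apart, and the groups overlapped only through BATI4KO library 2. The log2 difference of +2.34 (SE 0.62) did not pass in edgeR (adjusted p = 0.173) and passed in DESeq2 (+2.30, adjusted p = 0.0374). Skeletal muscle markers moved with it. Their log2 differences were positive for 16 of 16 markers with a median of +2.65 and none was called, and Ttn was at 14782 CPM in BATI4KO library 3 against 75.5 to 1775 CPM in the other 10. The summed CPM of the 16 markers was 204 to 1613 in floxed and 862 to 24795 in BATI4KO BAT, and no marker was at 0 in every library. Without BATI4KO library 3 the difference of Rpl3l was +1.37 (edgeR adjusted p = 0.266), and with the mean level of muscle genes as a term it was +0.26 (edgeR adjusted p = 0.897). Eef1a2, the muscle and neuron form of elongation factor 1A, stood at +2.99 (SE 0.76, edgeR adjusted p = 0.163).

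The other paralogues were low or followed their parents. Rpl10l, a testis gene, had 0 or 1 read in every library and passed no filter, while Rpl10 was at 146 to 248 CPM in BAT and 106 to 156 CPM in WV. Rpl39l, also best known from testis, had 5 to 28 reads in BAT and 1 to 14 in WV. Its mean was 0.481 ± 0.15 RPKM in floxed BAT against 50.3 ± 51.0 RPKM (SD, n = 5) for Rpl39. Rpl39l was called higher in BAT than in WV in BATI4KO mice (+1.71, SE 0.62, edgeR adjusted p = 0.0188), but not without BAT library KO_5492 (+1.52, edgeR adjusted p = 0.0548). In floxed mice it was not called (+1.01, edgeR adjusted p = 0.149), and WV floxed library FX_5497 held 14 of its reads. Without that library Rpl39l was called (+2.30, edgeR adjusted p = 0.00214). Rps27l, induced by p53, was by contrast close to its parent. It was at 82.7 ± 60.1 RPKM in floxed BAT and 66.7 ± 28.3 RPKM in floxed WV (SD, n = 5), and Rps27 at 97.1 ± 98.1 and 70.3 ± 24.4 RPKM.

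**Figure D2:**
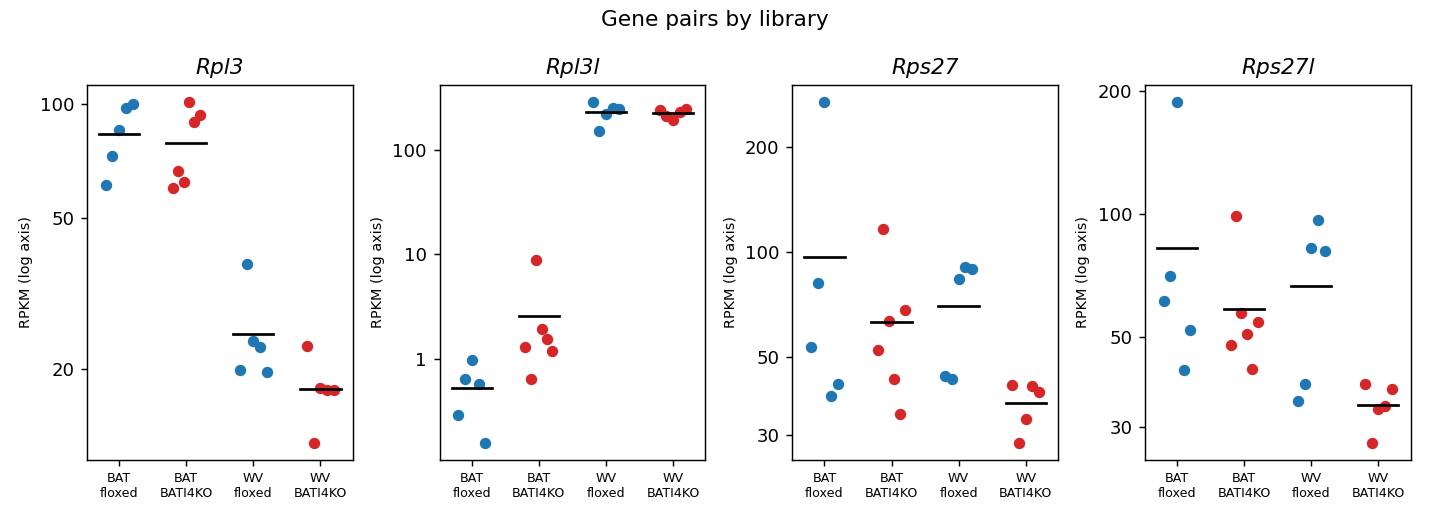
RPKM of Rpl3, Rpl3l, Rps27 and Rps27l in each library (points, log axes with a scale of their own in each panel) and the group means (bars), by tissue and genotype. Rpl3 and Rpl3l separate the tissues in opposite directions, whereas Rps27 and Rps27l show floxed BAT library 3 at the top and split floxed WV into 3 high and 2 low libraries.

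In BAT the question was whether loss of Irf4 changes the members, and no member passed. Of 78 tested, 0 were called higher and 0 lower by edgeR, against 0.0187% and 0.0249% of 16051 genes tested. Only Rpl3l among the members had an unadjusted p under 0.05, against 2366 of the 16051 genes tested. DESeq2 called 1 member higher, Rpl3l, and 0 lower, against 1.29% and 1.13% of the genes it gave an adjusted p. The log2 differences, BATI4KO minus floxed, were negative for 76 of 78 tested members with a median of -0.18, against -0.01 over all genes. With library totals the 2 medians were -0.04 and +0.13. The small-subunit median was -0.20 and that of the large subunit -0.17. Among the smallest p-values of negative differences were those of Rps2 (-0.19, SE 0.09), Rpl28 (-0.19, SE 0.09), Rpl36 (-0.26, SE 0.13) and Rps9 (-0.15), with edgeR adjusted p-values from 0.341.

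This median depended on floxed BAT library 3. It had the highest Rmrp (1330 CPM) and Rpph1 (2140 CPM) of the 11 BAT libraries and the highest mean log2 CPM over the members, 6.57 against 5.62 to 6.06 in the others. Of 78 tested members 55 had their highest BAT value in it, against 11.9% of all genes tested. Rps27 was at 41.6, 64.0, 214, 30.1 and 32.1 CPM in floxed libraries 1, 2, 3, FX_5497 and FX_5503 and at 41.1, 92.6, 49.1, 32.8, 26.4 and 53.4 CPM in BATI4KO libraries 1, 2, 3, KO_5414, KO_5492 and KO_5494. Library 3 was more than 2 times any other, and the remaining libraries of both genotypes overlapped. Without that library the median over members was -0.02, with 25 positive and 53 negative. It was -0.29 among the 6 libraries with short numbers, which include it, and -0.03 among the 5 with long tags, and no member was called in any of these fits. In BAT 0 of 78 members had every BATI4KO library below every floxed library, against 0.43% of all genes tested.

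In WV, a muscle in which Irf4 was not the target of the deletion, the members were lower in BATI4KO libraries on average, and no member passed in edgeR. All 77 tested log2 differences were negative with a median of -0.47, against -0.01 over all genes, and with library totals -0.57 against -0.12. The calls were 0 higher and 0 lower, against 0.00688% and 0% of 14529 genes tested. An unadjusted p under 0.05 was found for 64 of 77 members and for 1295 of all 14529 genes tested, and the members' smallest edgeR adjusted p was 0.285. DESeq2 called 12 members, all lower, against 0.639% lower and 0.226% higher of the genes it gave an adjusted p: Rps27, Rpl36, Rps25, Rpl10, Rpl35, Rpl37, Rps19, Rpl34, Rps29, Rps27l, Rpl41 and Rps21. Large and small subunit did not stand apart, with medians of -0.44 and -0.49. Markers of other cells had negative differences too, for 8 of 8 macrophage (median -0.68), 6 of 6 fibroblast and 3 of 3 erythroid markers tested, with none called. Endothelial markers had 5 of 7 positive differences (median +0.01), lymphocyte markers 2 of 3 (median +0.06) and skeletal muscle markers 8 of 16 (median +0.02). The summed macrophage markers were at 21.9 to 106.7 CPM in floxed and 29.8 to 58.6 CPM in BATI4KO WV, the summed fibroblast markers at 945 to 1703 and 773 to 1284 CPM, and the summed erythroid markers at 11.7 to 27.0 and 8.16 to 16.1 CPM. Libraries FX_5413 and FX_5415 held the low and high ends of the floxed macrophage and fibroblast ranges, and FX_5514 and FX_5497 those of the erythroid range. In the 3 floxed libraries of high Rmrp the macrophage sum was 55.2 to 71.0 CPM. For each of these sums the floxed and BATI4KO ranges overlapped, and no marker was at 0 in every library. The markers' part in the members' difference was not tested.

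Shorter members had larger differences in WV. Among the 75 members other than the 4 paralogues, those under 777 bases had a median of -0.64 and the rest one of -0.35 (Spearman 0.49 with length across genes, which share libraries), and Pearson's r with log2 length was +0.41 over these members and +0.23 over all genes tested. The members of smallest p in WV showed the same grouping of libraries. Rpl35, beside the exit of the nascent chain, was at 25.7, 22.8, 47.8, 55.6 and 52.3 CPM in floxed libraries FX_5413, FX_5415, FX_5497, FX_5503 and FX_5514, and at 22.5, 13.6, 17.2, 20.03 and 26.3 CPM in BATI4KO libraries KO_5492 to KO_5496. The first 2 floxed libraries lay within the BATI4KO range and the other 3 above it. The log2 difference of Rpl35 was -1.03 (SE 0.26, edgeR adjusted p = 0.335). Rps25, which initiation at some viral RNAs requires, was at 46.9, 41.4, 70.5, 77.2 and 70.8 CPM in floxed and at 40.9, 30.4, 34.3, 38.6 and 40.4 CPM in BATI4KO libraries. All floxed values of Rps25 exceeded all BATI4KO values, that of FX_5415 by little, for a difference of -0.73 in log2 (SE 0.17, edgeR adjusted p = 0.285). Rps27 (-0.95, SE 0.23), Rpl36 (-0.90, SE 0.22) and Rpl37 (-0.62, SE 0.15) complete the 5 members of smallest p. Rplp0 (-0.21, SE 0.12) and Rpsa (-0.22, SE 0.12) were among those that differed least, as was Rpl3l (-0.06, SE 0.15). In WV 12 of 77 members had every BATI4KO library below every floxed library, against 0.785% of all genes tested: Rps12, Rpl41, Rpl23a, Rpl37, Rpl8, Rps18, Rps27, Rpl6, Rpl13a, Rpl27a, Rps25 and Rpl10.

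Most of this difference came with the 3 floxed WV libraries of high Rmrp. Their mean log2 CPM over the members was 5.77, 5.84 and 5.70, against 5.33 and 5.26 in floxed libraries FX_5413 and FX_5415 and 4.83 to 5.31 in the 5 BATI4KO libraries. In 54 of 77 members all 3 were above both other floxed libraries, against 9.62% of all genes tested, and in 59 all 3 were above every BATI4KO library, against 4.84%. Floxed libraries FX_5413 and FX_5415 were both above every BATI4KO library in 12 members, against 4.63% of all genes tested, and in the other 65 at least 1 of them lay within or below the BATI4KO range. Without the 3 libraries the median was -0.18, with 75 of 77 differences negative, 2 members with an unadjusted p under 0.05, none called and a smallest edgeR adjusted p of 0.903. With the level of Rmrp and Rpph1 as a term it was -0.11. All libraries of high Rmrp in WV were floxed, so that their level and the genotype can be separated only through libraries FX_5413 and FX_5415. The tags FX_5497 and FX_5503 also name floxed BAT libraries, where Rmrp was low at 22.2 and 21.2 CPM.

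**Figure D3:**
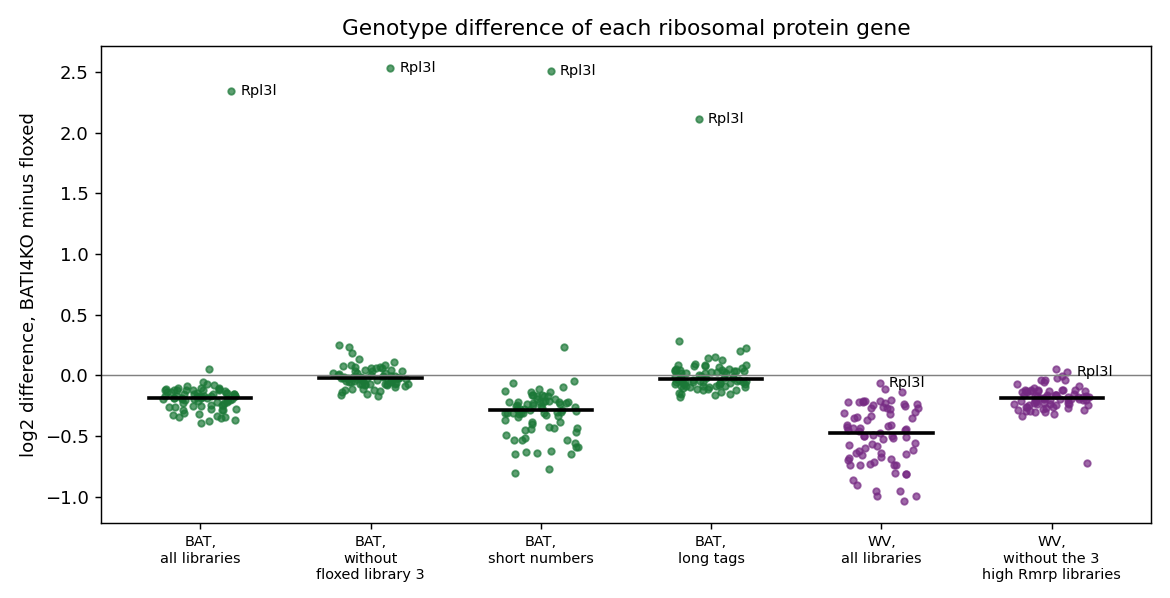
The log2 difference, BATI4KO minus floxed, of each tested member (points) and their median (bars) in all BAT libraries, without floxed BAT library 3, in each title style, in all WV libraries and without the 3 WV libraries of high Rmrp. The medians are -0.18, -0.02, -0.29, -0.03, -0.47 and -0.18 from left to right, and Rpl3l stands apart in BAT alone.

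The level of the 2 noncoding RNAs was then entered as a term beside genotype and title style, a fit added after the libraries had been seen. In BAT 50 of 78 tested members rose with it and 0 fell, against 1.76% and 0.199% of all genes tested. The median over tested members was +0.37 on the log2 scale per log2 unit of the mean of Rmrp and Rpph1, against -0.02 over all genes. Among those of smallest p were Rpl39 (+1.05, SE 0.12), Rpl31 (+0.66, SE 0.08), Rps27 (+1.02, SE 0.12) and Rps25 (+0.59, SE 0.07), with edgeR adjusted p-values of 0.00363 to 0.00397. Rpl39 lines the tunnel of the nascent peptide and Rpl31 sits at its exit, and Rps27 belongs to the small subunit. Rplp0 (+0.19), Rplp2 (+0.22), Rpsa (+0.32) and Rpl3 (+0.18) were not called, and Rpl3l was the only negative one (-0.09). Without floxed library 3 no member was called and the median was +0.31, and without floxed library 1 the number was 15. Shares of all genes in these 2 fits are not given here. Of a list of short noncoding RNAs that holds Rmrp and Rpph1 themselves, 6 of 8 tested rose with the term (median +1.28). With short numbers 5 of the 8 were called higher than with long tags (median +3.38), against 14.9% of all genes tested. Whether the members go with these 2 RNAs or with short noncoding RNAs in general was not tested. Of mitochondrial ribosomal protein genes 3 of 71 rose with the term, with a median of +0.06, and the fibroblast and macrophage markers had 2 of 6 and 4 of 8 called higher. Floxed library 3 also had the highest summed macrophage markers of the 11 (150 CPM, others 66.5 to 131.8 CPM) and the highest summed fibroblast markers (1778 CPM, others 734 to 1424 CPM), and their part in the members' values was not tested.

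In WV 7 of 77 tested members rose with the same term beside genotype and 0 fell, against 0.103% and 0% of all genes tested. They were Rpl32 (+0.41, SE 0.05), Rps27l (+0.40, SE 0.05), Rpl37a (+0.29, SE 0.04), Rps19 (+0.38, SE 0.05), Rps27 (+0.33, SE 0.05), Rpl36 (+0.31, SE 0.05) and Rps28 (+0.31, SE 0.05), with edgeR adjusted p-values of 0.0137 to 0.0493. Rpl32 was at 18.01, 18.6, 45.4, 45.8 and 41.99 CPM in floxed libraries FX_5413, FX_5415, FX_5497, FX_5503 and FX_5514 and at 12.99 to 20.4 CPM in BATI4KO libraries. Only the 3 libraries of high Rmrp were high. Of the listed short noncoding RNAs, Rmrp and Rpph1 included, 3 of 4 tested in WV rose with the term (median +0.77). Between genotypes in WV all 4 had negative differences (median -2.20), with none called. The median over tested members was +0.15, with +0.24 among those under 777 bases and +0.07 among the rest (paralogues left out). The count was 7 only with all libraries or without BATI4KO libraries KO_5492 or KO_5493. It was 4 without BATI4KO libraries KO_5494 or KO_5496, 2 without KO_5495, 1 without floxed library FX_5413, 3 without FX_5514 and 0 without floxed libraries FX_5415, FX_5497 or FX_5503. Shares of all genes in the fits with a library left out are not given here.

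**Figure D4:**
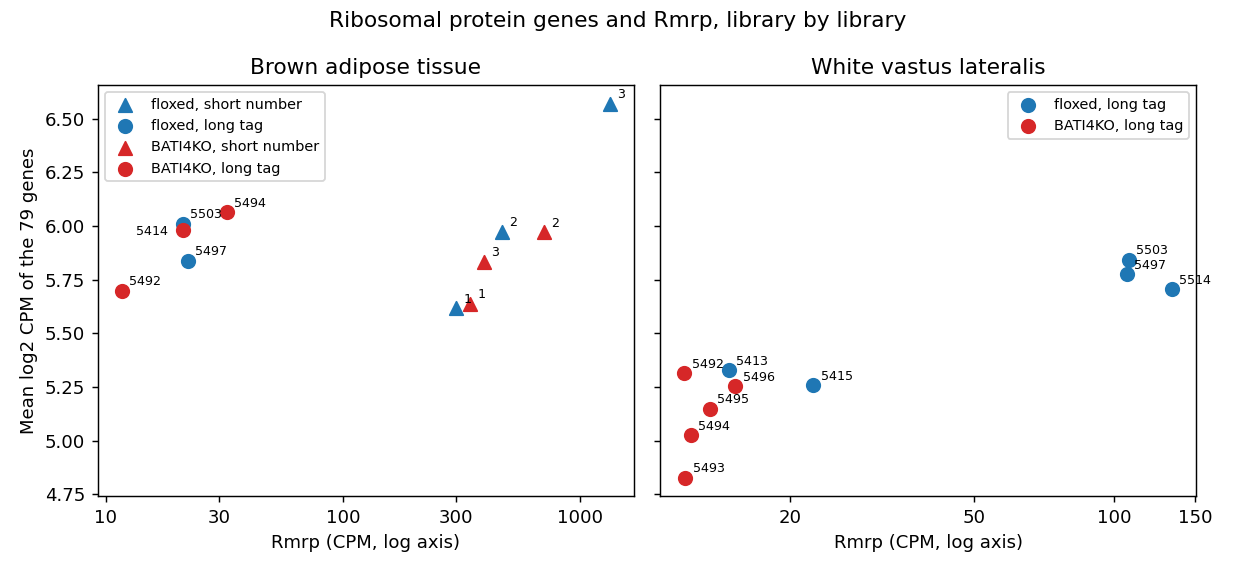
Mean log2 CPM of the 79 genes (y axis) against Rmrp in CPM (x axis, log scale) for each BAT (left) and WV (right) library, coloured by genotype, with triangles for short numbers and circles for long tags. In BAT the 2 title styles form separate groups on the Rmrp axis, and floxed library 3 (1330 CPM, mean 6.57) is highest on both axes. In WV the 3 libraries above 100 CPM have the 3 highest means.

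The title style itself split the members in BAT by length. Libraries with short numbers had 11 of 78 tested members higher and 16 lower than those with long tags, against 14.9% and 16.4% of all genes tested. Rpl19 was at 94.6, 110, 141, 98.4, 109 and 101 CPM in the 6 short-number libraries and at 174, 232, 200, 179 and 207 CPM in the 5 with long tags. The styles did not overlap, and Rpl19 was lower with short numbers by a log2 difference of -0.88 (SE 0.11, edgeR adjusted p = 1.96e-04). Rps16 was at 68.5 to 104 CPM with short numbers and 39.5 to 50.9 CPM with long tags, again without overlap (+0.79, SE 0.12, edgeR adjusted p = 5.36e-04). The other members of smallest p were Rplp2 (+0.64), Rpl28 (+0.44), Rps13 (+0.42) and Rpl38 (+0.92) on the higher side and Rpl13a (-0.84), Rpl21 (-0.81), Rps9 (-0.56) and Rpl8 (-0.52) on the lower side. Over the 75 members other than the 4 paralogues, those shorter than the median of 777 bases had a median difference of +0.30 and the rest one of -0.38. The correlation with log2 length was -0.58 (Pearson) and -0.69 (Spearman) across these genes, which share the same libraries. Over all genes tested, whose median length was 3141 bases, Pearson's r was +0.11. The members' median was -0.01 against +0.03 over all genes, +0.09 against +0.14 with library totals and +0.06 against +0.11 with upper-quartile scaling. The number of members called lower was 27 without floxed library 3, and the share of all genes in that fit is not given here.

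**Figure D5:**
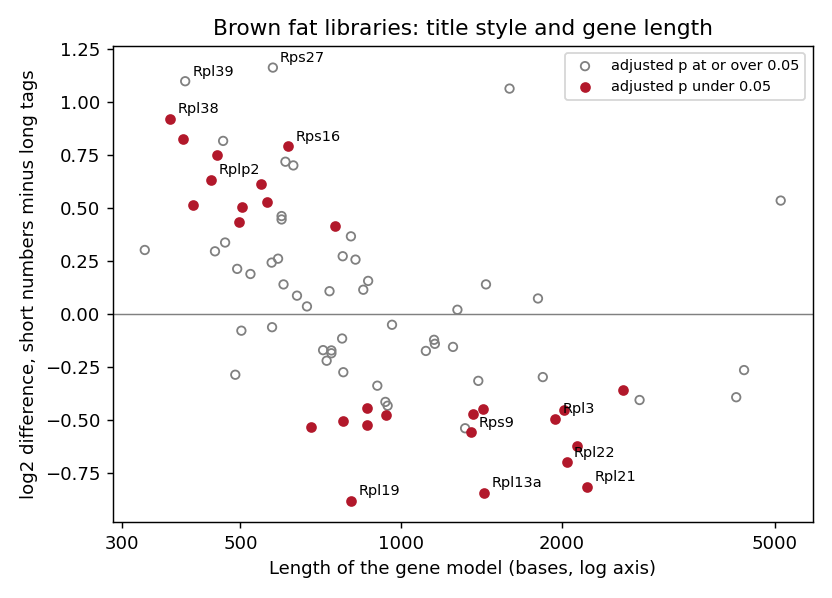
Difference between BAT libraries with short numbers and long tags (y axis, log2) of each tested member against the length of its gene model (x axis, log scale), with filled points for an edgeR adjusted p under 0.05. Members under 777 bases lie mostly above 0 and longer ones mostly below it.

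The genotype difference in BAT was compared with that in WV as an interaction, which shares its libraries with the 2 genotype comparisons above. No member passed, with 0 of 78 called in either direction against 0.00601% higher and 0.012% lower of all genes tested. Without BATI4KO BAT library 2 edgeR called 1 member, and the share of all genes in that fit is not given here. Of the 78 tested, 9 had an unadjusted p under 0.05, beside 1766 of all 16632 genes tested. Differences were positive for 74 of the 78 and for 8619 of all genes. The median was +0.27 against +0.02 over all genes, or +0.53 against +0.28 with library totals. The largest by p were Rpl3l (+2.41, SE 0.65), Rps13 (+0.60, SE 0.22), Rpl35 (+0.89, SE 0.34), Rps19 (+0.77, SE 0.30) and Rpl32 (+0.76, SE 0.32), with edgeR adjusted p-values of 0.268 to 0.394. Without the 3 WV libraries of high Rmrp the median was -0.03, and Rpl35 stood at +0.15, Rps19 at -0.07 and Rpl32 at -0.12.

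Other genes of ribosome production and use gave a frame for these values. Of all genes tested in BAT against WV, 34.1% were called higher and 31.7% lower in floxed mice, and 57% and 15.9% with library totals. In BATI4KO mice these shares were 37.4% and 33.1%, and 68.3% and 13.8% with library totals. Of translation factors, 28 of 42 tested were called lower and 3 higher in BAT than in WV in floxed mice, with a median of -0.54, but with library totals 14 were higher and 9 lower and the median was +0.16. In BATI4KO mice 33 were lower and 3 higher (median -0.71), and with library totals 8 lower and 20 higher (+0.23). The subunits of elongation factor 1, Eef1g (-1.77, SE 0.12) and Eef1d (-1.69, SE 0.12), had the smallest p-values on the lower side, and both kept their calls with library totals. Of ribosome biogenesis factors 39 of 81 were lower and 15 higher in floxed BAT, against 7 and 48 with library totals. Imp4, of the small-subunit processome, was higher at +1.81 (SE 0.11). Mitochondrial ribosomal proteins were mixed, with 13 higher and 19 lower of 71, against 50 and 2 with library totals. In WV between genotypes the medians were -0.06 for translation factors, -0.02 for ribosome biogenesis and -0.12 for mitochondrial ribosomal proteins, against -0.47 for the cytosolic members, and none of these genes was called. All these medians stayed negative under each scaling tried. Of the protein subunits of RNase P and RNase MRP, 0 of 9 were called between genotypes in WV (median -0.08), where Rmrp stood at -2.58 (SE 0.51, edgeR adjusted p = 0.175) and Rpph1 at -3.38 (SE 0.69, edgeR adjusted p = 0.19). Ribosomal proteins whose symbols fall outside the name pattern did not all follow the members. Of 5 tested, 2 were called higher and 2 lower in floxed BAT than in floxed WV. Gnb2l1 (-0.75, SE 0.15), the kinase scaffold of the small subunit, was lower. With library totals Gnb2l1 stood at -0.08 and was not called.

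Spread between libraries was widest where single libraries stood apart. The median SD of log2 CPM over tested members was 0.41 in floxed BAT against 0.31 over all genes, 0.30 against 0.29 in BATI4KO BAT, 0.29 against 0.27 in floxed WV and 0.21 against 0.25 in BATI4KO WV. After each library's own mean over the members was subtracted it was 0.28, 0.24, 0.21 and 0.10. The tested members of largest SD were Rps27, Rpl39 and Rpl3l in floxed BAT, Rpl3l, Rpl39l and Rps27 in BATI4KO BAT, Rps27l, Rpl32 and Rps19 in floxed WV and Rpl39, Rpl35 and Rpl38 in BATI4KO WV.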

How the data were processed

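RNA of whole tissue from 21 mouse libraries was depleted of ribosomal RNA, primed with random hexamers and made into libraries by tagmentation, per the labels' protocols. The authors deposited raw read counts per gene model, 1 table per tissue, with each model's symbol and length in bases, per the file headers. The submitters' processing notes name featureCounts 1.4.6 beside TopHat2 2.0.14 and build mm9, and also SAMtools 0.1.19, Picard 2.2.4, edgeR and, for demultiplexing software, bcl2fastq 2.17.1.14. The sources used here do not give how strand, multi-mapping reads or duplicates were treated, so reads shared with processed pseudogenes, with overlapping genes or with snoRNAs in introns cannot be told apart from a member's own.

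Groups came from the genotype and tissue labels. Counts were filtered (filterByExpr), scaled by TMM and fitted in R 4.3.3, the main test being the quasi-likelihood F test of edgeR 4.0.16, adjusted by Benjamini-Hochberg over all genes tested, with a threshold of 0.05. BAT was fitted with title style as a term, WV without, and the tissue difference and interaction in 1 fit over 21 libraries with title style. The filters left 78 members in BAT, 77 in WV and 78 in the joint fit. SE is the log2 difference divided by the root of F. Library means average the members' log2 CPM (prior count 2). Start sequences are from RefSeq, build GRCm38.p6, matched by symbol, and the tables' own build was not used for sequence. Replicates differed beyond sampling noise in all 45 pairs (chi-square per gene 30.4 or more). The tests were checked on simulated counts.

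Named were Rplp0, Rplp1, Rplp2, Rpsa, the paralogues with their parents, the 5 highest and 5 lowest per length in each floxed tissue, up to 5 per direction of smallest p in each comparison and the 3 of largest SD per group. Further members are named where DESeq2 called them, where groups did not overlap or where calls are listed in full, and these were chosen after their values were seen. Values of some members and related genes that the rule would name are not reported here. The members, gene lists and tests were chosen with earlier results of these data known. Alternatives were DESeq2 1.42.0, limma 3.58.1 (voom), other scalings and filters, length correction, summed models, covariates, each title style and each library left out. The fits on the level of Rmrp and Rpph1 and those without the 3 WV libraries of high Rmrp were added after the data were seen.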

Additional observations from a re-analysis of the deposited data

Results flagged for a closer look

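In each tissue and genotype group, of 5 or 6 libraries, the highest or lowest library was compared with the rest. The quantities were Rplp0, Rplp1, Rplp2, Rpsa, the paralogues with their parents and the Rpl3l share of its pair. The members' mean and percent of counts, Rmrp and Rpph1 were examined too. Of 68 combinations of quantity and group, 11 held a library far from the others by Dixon's test, whose nominal rate is about 5% (1 in 20). The 11 cannot be read against that rate, because some quantities share the same reads. Rpl10l is also flagged wherever a single library of a group holds its only read. Floxed BAT library 3 was high for Rps27 (214 CPM, others 30.1 to 64.0), Rps27l (120 CPM, others 25.9 to 44.6) and Rpl39 (76.1 CPM, others 10.8 to 21.6). In BATI4KO BAT, Rps27l was high in library 2 (63.3 CPM, others 25.8 to 35.8). In BATI4KO BAT library 3, Rpl3l was high (18.9 CPM, others 1.41 to 4.05) and was 12.4% of the Rpl3 and Rpl3l pair (others 0.955% to 2.12%). In floxed WV library FX_5415, Rpl3 was high (53.2 CPM, others 27.2 to 34.2) and the Rpl3l share of the pair low (80.1%, others 90.4% to 93.6%). Rpl39l was high in floxed WV library FX_5497 (0.385 CPM, others 0.0249 to 0.102). Rpl10l was at 0.0314 CPM in floxed BAT library 1 and at 0.0347 CPM in floxed WV library FX_5413, 1 read each, with 0 in the other floxed libraries of the tissue.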

How the results depend on the processing

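The members' median kept its sign under every alternative run for the genotype difference in BAT and in WV and for the level of Rmrp and Rpph1 in both tissues. In WV the genotype median was -0.11 with the level of Rmrp and Rpph1 as a covariate and -0.18 without the 3 libraries of high Rmrp. The interaction median was +0.53 with library totals and -0.025 without those 3 libraries. The median for title style was +0.029 with length correction, +0.086 with library totals and +0.063 with upper-quartile scaling, and -0.17 to +0.080 with 1 library left out. For the tissue difference, library totals gave medians of +0.29 in floxed and +0.81 in BATI4KO mice, upper-quartile scaling +0.040 in BATI4KO mice, and the floxed median was -0.076 without the 3 WV libraries. With library totals Rpl10 was at +0.15 and Rpsa at +0.52 in floxed mice, and Rpl10 at +0.53, Rpl22 +0.12, Rpl39 +0.85, Rplp0 +0.079, Rplp1 +0.42 and Rpsa +0.79 in BATI4KO mice. The cause of the other changes was not tested.

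Counts of called members moved, as did those of all genes. For the tissue difference, the alternatives called 9425 to 12121 genes in all in floxed and 9244 to 13653 in BATI4KO mice, the most with library totals. For title style they called 4621 to 5135 genes in all. Counts over all genes with 1 library left out are not given here. Among members, DESeq2 called 1 higher in BAT and 12 lower in WV between genotypes, with 372 and 111 genes called in all. For the tissue difference in floxed mice, library totals gave 21 higher and 2 lower, long tags alone 2 higher, and leaving out the 3 WV libraries 18 lower. In BATI4KO mice, library totals gave 69 higher and 2 lower, length correction 5 higher and 35 lower, and upper-quartile scaling 10 lower. For title style, library totals gave 18 higher. For the level of Rmrp and Rpph1, length correction gave 27 in BAT, where it called 125 genes in all, and 3 in WV. Library totals gave 0 in WV, where 3 genes were called in all. Leaving out each library in turn gave 0 to 49 members (level of Rmrp and Rpph1, BAT), 0 to 7 (WV), 13 to 27 lower for title style, 0 to 1 for the interaction, and 2 to 5 higher and 24 to 48 lower for the floxed tissue difference. The 2 to 5 were 2 without floxed BAT library FX_5503 or floxed WV libraries FX_5413 or FX_5415.

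The same short numbers or tags occur across groups, but the labels do not say that they mark the same animal or day. Deviations of same-numbered libraries correlated at 0.165, -0.114 and 0.109 across genotypes in BAT and at 0.0180 to 0.0839 across tissues. Those of differently numbered libraries correlated at -0.269 to 0.189 and at -0.0901 to 0.128, most of the latter negative. These values cannot decide whether a shared number marks 1 animal, and the main fits did not pair libraries. With the number as a block the BAT genotype median was -0.24 with 0 members called, the interaction median +0.55, and the floxed tissue median -0.70 with 1 higher and 55 lower. Of the floxed calls, Rplp2 (+0.49, edgeR adjusted p = 0.0552), Rps19 (+0.20, 0.404) and Rpl19 (+0.24, 0.353) were not called with the block. In BATI4KO mice the block gave 5 higher and 14 lower with a median of -0.12. Of all genes, 9425 were called in floxed and 9244 in BATI4KO mice with the block.

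Depth limits Rpl10l (0 or 1 read a library), Rpl39l (at most 28) and, in BAT, Rpl3l (from 12).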

Other observations

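Small nucleolar RNAs encoded in introns of ribosomal protein genes were measured for 6 of 17 listed genes in the joint fit. In floxed mice 4 of the 6 were called higher in BAT than in WV under TMM and under library totals. Of all genes tested, 34.1% and 57% were called higher under these scalings. The 6 had medians of +1.74 and +2.40, beside a members' median of -0.41 on TMM scaling. Snora52 stood at +3.86 (SE 0.57) under TMM, and no small RNA was compared with its own host gene. In BATI4KO mice 3 of the 6 were called higher under TMM and 4 under library totals, with medians of +1.25 and +2.19. The shares of all genes called higher there were 37.4% and 68.3%. The tables count reads per model without a stated strand or minimum read length, and whether these reads come from the small RNAs or from unspliced host transcripts was not tested.

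Among proteins of the mitochondrial ribosome the title style of the BAT libraries gave 51 of 71 lower and 1 higher with short numbers, with a median of -0.52, where the cytosolic members had 16 lower and 11 higher of 78. Brown adipocyte markers had 8 of 12 lower and 2 higher, and of all genes tested 16.4% were lower and 14.9% higher. Library means of the mitochondrial set were 4.51 to 4.93 log2 CPM with short numbers and 4.996 to 5.40 with long tags, without overlap, whereas those of the cytosolic members were 5.62 to 6.57 and 5.70 to 6.06.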
